A study of Rattus norvegicus with 4 samples.

Results

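A set of 10 genes of glycolysis and lactate metabolism, Hk1, Hk2, Pfkm, Aldoa, Aldoc, Gapdh, Pgk1, Eno2, Ldha and Ldhb, were measured in the RNA-seq libraries of the newborn rat hippocampus. They were matched by gene symbol, and the set was chosen with earlier results of these data known. All 10 members were found among the 17445 rows of the deposited tables, each under its NCBI gene ID and each listed in every library. Wistar dams aged 10 weeks received bisphenol A (BPA), a plasticizer with estrogenic activity, at 5000 µg/kg body weight, or vehicle alone, into the stomach each day between gestation day 1 and delivery; BPA was dissolved in ethanol and diluted in corn oil. The hippocampi of the pups were taken on postnatal day 1. The 4 libraries were of male pups and female pups of vehicle-treated dams (control) and of BPA-treated dams, and the design text speaks of 3 pooled hippocampi for each treatment without naming the sex. The results section of the paper counts 3 male and 3 female pups per treatment for RNA-seq, from separate litters. The data hold 1 library for each sex and treatment, so no group has a replicate library here.

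Glycolysis splits glucose into pyruvate in the cytosol and yields ATP and NADH without oxygen, and lactate dehydrogenase turns pyruvate and lactate into each other while it restores NAD+. Most steps are run by several isozymes encoded by separate genes, and neurons and glia use them unequally: Eno2 is the neuronal enolase, Aldoc is the brain aldolase that marks astrocytes, and the LDH tetramer is assembled from Ldha and Ldhb subunits. The brain depends on glucose as its main fuel. Many of these genes are also textbook targets of the hypoxia-inducible factor HIF-1, whose binding sites include those with the core ACGTG.

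The values are FPKM, fragment counts scaled by model length and library size, so levels of different genes can be set side by side. The steps of the low values placed the depth at 8660000 to 8880000 fragments per library, and at that depth each gene but Hk2 rested on 1303 to 10047 fragments in a library. Hk2 rested on 21 to 52. Counting intervals given below follow from these estimated fragments, cover counting error only, and compare 1 library with 1 other. The libraries had hippocampal neuron markers such as Neurod6, at 135 to 161 FPKM, and Prox1, at 7.61 to 12.8 FPKM. They differed in other tissue: the summed level of 8 meningeal genes was 346 FPKM in the library of control females and 68.8 to 87.3 FPKM in the others, and that of 8 choroid plexus genes was 278 and 721 FPKM in the control-male and BPA-male libraries against 19.3 and 56.6 FPKM in the control-female and BPA-female libraries. Their part in the results below was not tested, and in such bulk tissue fewer cells of a type and less RNA per cell cannot be told apart.

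RefSeq promoter windows of 300 bases in the rat assembly GRCr8 were available for 9 of the 10 genes, in 12 windows. Each held 250 bases before the start site and 50 after it. The gene without a window was Pgk1. Both strands were searched for the core ACGTG alone. It occurred in 7 of the 12 windows, 1 for each of 7 genes, and in 19.3% of all 33469 windows of that length. Shown here are the windows of Aldoa, Pfkm and Ldha. These genes were lower in both BPA libraries than in both control libraries, and so was Pgk1. Ldha had more matches than any other of the 9 genes with a window. Capitals mark ACGTG or its reverse complement CACGT, and the palindrome CACGTG in the Ldha window holds both, so its matches there overlap. The Aldoa window is that of the last of its 3 listed start sites, chr1:190836728-190837027 on the minus strand, the Pfkm window is chr7:131113849-131114148 on the plus strand, and the Ldha window is chr1:106507842-106508141 on the plus strand.
Aldoa: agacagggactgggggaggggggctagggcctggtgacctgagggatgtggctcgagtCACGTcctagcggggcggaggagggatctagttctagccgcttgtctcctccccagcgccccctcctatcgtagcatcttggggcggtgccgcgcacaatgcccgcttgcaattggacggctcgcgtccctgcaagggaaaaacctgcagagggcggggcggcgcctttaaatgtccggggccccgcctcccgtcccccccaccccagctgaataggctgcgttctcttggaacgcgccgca
Pfkm: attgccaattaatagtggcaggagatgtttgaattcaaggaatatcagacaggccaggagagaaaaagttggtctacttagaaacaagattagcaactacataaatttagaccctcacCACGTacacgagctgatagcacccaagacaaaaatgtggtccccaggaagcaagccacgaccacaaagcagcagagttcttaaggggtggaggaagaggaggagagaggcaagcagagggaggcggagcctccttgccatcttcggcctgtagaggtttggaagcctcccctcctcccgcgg
Ldha: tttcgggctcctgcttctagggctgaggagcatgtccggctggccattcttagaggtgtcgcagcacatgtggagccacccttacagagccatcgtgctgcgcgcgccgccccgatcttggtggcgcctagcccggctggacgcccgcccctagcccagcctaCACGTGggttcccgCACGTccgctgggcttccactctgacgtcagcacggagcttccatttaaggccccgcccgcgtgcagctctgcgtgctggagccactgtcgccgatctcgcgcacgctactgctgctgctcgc
Counted from the start site, the match began at -192 in Aldoa and at -132 in Pfkm. In Ldha the matches began at -87, -86 and -73, and the CACGTG hexamer is found in 6.42% of all windows. The other windows of Aldoa, the first window of Hk1 and the windows of Hk2 and Ldhb held no ACGTG.

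Gapdh, which encodes the dehydrogenase that makes the NADH of glycolysis and is a common reference gene, was the highest, at 887 FPKM in control males, 921 in BPA males, 845 in control females and 852 in BPA females, and ranked between 27 and 32 among all rows of a library. Gapdh was followed by Aldoa, with a mean of 226 ± 20.6 FPKM (SD, n = 4 libraries), and Ldha, with 190 ± 5.15 FPKM. Ldhb and Aldoc came next at 142 ± 5.70 and 140 ± 5.07 FPKM, Hk1 and Pgk1 at 106 ± 5.77 and 104 ± 8.30 FPKM, and Eno2 and Pfkm at 75.0 ± 4.67 and 68.1 ± 4.79 FPKM. Ldhb and Aldoc, like Hk1 and Pgk1, changed places between libraries, so their order is not resolved, whereas Eno2 was above Pfkm in all 4 libraries. Hk2, the inducible hexokinase of muscle and tumours, stood far below all others at 1.26 ± 0.413 FPKM. These SDs mix sex and treatment, as the libraries do. The coefficient of variation over the 4 libraries was 2.71% for Ldha, the smallest, to 9.10% for Aldoa among the 9 higher genes, and 32.9% for Hk2. The median of all 13542 rows tested was 11.6%, and that of the 1668 rows with a mean of at least 50 FPKM was 7.18%. All 9 genes other than Hk2 thus varied over the 4 libraries by a factor of 1.21 or less.

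**Figure D1:**
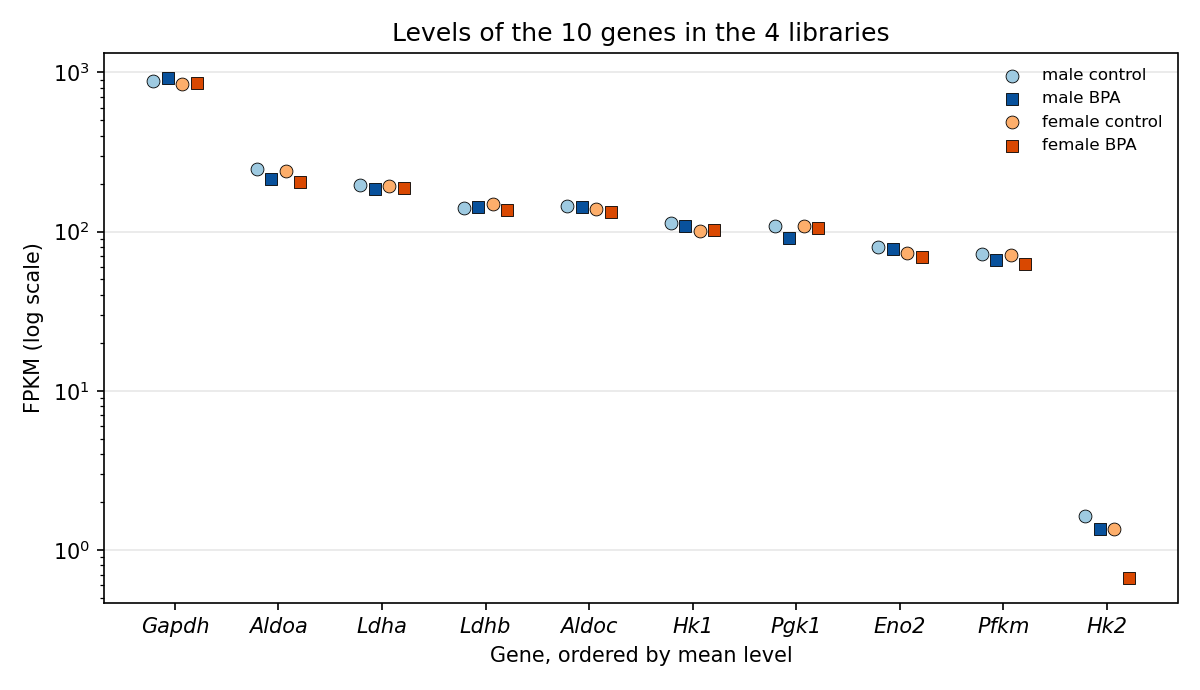
FPKM of the 10 genes on a log axis, with 1 point for each library (circles for control, squares for BPA, blue for males, orange for females). Gapdh lies between 845 and 921 FPKM, 8 genes lie between 62.3 and 247 FPKM, and Hk2 lies between 0.67 and 1.64 FPKM.

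Whether prenatal BPA exposure changed these genes was asked by setting the 2 BPA libraries against the 2 control libraries. None of the 10 genes differed between BPA and control at an adjusted p under 0.05 (limma on log2(FPKM + 1), Benjamini-Hochberg over all rows). Of all 13542 rows 0.0% passed, and 4.7% passed an unadjusted p under 0.05, at which 0 of the 10 genes passed as well. These counts are from the fit without sex as a covariate, and no unadjusted count is given for the fit with it. With sex as a covariate the standard error was 0.0717 for Aldoa and 0.0727 for Pfkm, against 0.0933 and 0.0961 without it. For Hk2 it was 0.29 against 0.285. The combined log2 fold change was below 0 for 9 of the 10 genes, with a median of -0.06, against 54.4% of all rows with a median of -0.02, and against 40.9% of the rows with a mean of at least 50 FPKM, where the median was 0.02. The number below 0 was 10 after quantile normalization and 8 after median-of-ratios scaling, because Gapdh or Hk1 changed sign there. It was 7 without the library of control males, 6 without the library of BPA females and 10 without either of the other 2. In 4 genes, Pfkm, Aldoa, Pgk1 and Ldha, both BPA libraries lay below both control libraries, and in none did both lie above. The shares of all rows with such an order were 19.9% and 13.8%, and among the rows with a mean of at least 50 FPKM 11.9% and 15.6%. In such a design of 2 against 2 an exact permutation test of a single gene cannot go below p = 0.333.

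Hk1 and Hk2 phosphorylate glucose and so trap it in the cell. Hk1, the brain form, was at 113 and 109 FPKM in control males and BPA males and at 101 and 103 FPKM in control females and BPA females, and these values overlapped between treatments (combined log2 fold change -0.02, standard error 0.10). Hk2 was at 1.64 and 1.36 FPKM in the male libraries and at 1.36 and 0.67 FPKM in the female libraries, with BPA females the lowest. Its combined log2 fold change of -0.33 (standard error 0.28, adjusted p 0.973 in limma) was the lowest of the 10 genes, on a scale where the added 1 weighs as much as the level itself. It was -0.59 with a pseudocount of 0.1 and -0.08 without the library of BPA females. About 42 fragments in control females and 21 in BPA females lie behind the female value, whose log2 ratio without a pseudocount was -1.02 (counting interval -1.78 to -0.27). Hk2 had a mean just above the limit of 1 FPKM for testing. Hk1 made up 98.6% to 99.3% of the summed FPKM of Hk1, Hk2 and Hk3 in every library.

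Pfkm, the muscle-type subunit of phosphofructokinase that commits glucose to glycolysis, was at 72.7 FPKM in control males, 66.2 in BPA males, 71.3 in control females and 62.3 in BPA females. Both BPA libraries were the low ones, with log2 ratios of -0.13 in males (counting interval -0.23 to -0.04) and -0.20 in females (-0.30 to -0.10). Combined, the log2 fold change was -0.16 (standard error 0.096, adjusted p 0.973 in limma).

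Aldoa and Aldoc encode the aldolases that cleave fructose 1,6-bisphosphate. Aldoa, the widespread form, was at 247 FPKM in control males, 214 in BPA males, 240 in control females and 204 in BPA females. Both BPA libraries were the low ones, the percent difference being -13.4 for males and -15 for females. The combined log2 fold change was -0.22 (standard error 0.093), the lowest of the 10 genes after that of Hk2, with an unadjusted p of 0.0524 and an adjusted p of 0.973 in limma. Each difference was larger than counting error, with a log2 ratio of -0.21 in males (counting interval -0.28 to -0.13) and -0.23 in females (-0.31 to -0.16). Of the rows with a mean of at least 50 FPKM, 2.22% had a lower combined change. Aldoc stood nearer to its controls, at 145 and 143 FPKM in control males and BPA males and at 139 and 133 FPKM in control females and BPA females, a combined log2 fold change of -0.04 (standard error 0.096, adjusted p 0.988 in limma). The Aldoc row carries a best protein match to Spag5, the gene that lies next to it in the RefSeq table, while its gene ID, 24191, and its symbol are those of Aldoc, and Spag5 has its own row. The ratio of Aldoa to Aldoc, which does not depend on how a library is scaled, was 1.71 in control males, 1.5 in BPA males, 1.73 in control females and 1.53 in BPA females. The control and BPA ratios did not overlap, and the exact permutation test gave p = 0.333, the smallest possible.

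Gapdh was the only one of the 10 genes with a combined value above 0, at 0.03 (standard error 0.11, adjusted p 0.988 in limma). The BPA library was higher by 3.88% in males and 0.858% in females, and the combined value was -0.04 after quantile normalization. The 95% interval of the combined log2 fold change was -0.22 to 0.28. Gapdh is known for many processed pseudogenes, and the files hold 8 further new gene models whose best match is a GAPDH protein. These held 0.687% to 1.32% of the FPKM summed over Gapdh and those models. Among them BGI_novel_G002422 was at 4.04 FPKM in control males, 0.01 in BPA males, 1.05 in control females and 3.07 in BPA females, and how reads were divided between near-identical copies is not given in the sources used here. Aldoa had 1 such model, listed for males only.

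Pgk1, the first enzyme of the pathway to return ATP, was at 109 FPKM in control males, 91.4 in BPA males, 109 in control females and 105 in BPA females. The library of BPA males was low and the other 3 were within 4 FPKM of each other. The log2 ratio was -0.25 in males (counting interval -0.36 to -0.15) and -0.04 in females (-0.15 to 0.06), and the combined log2 fold change was -0.15 (standard error 0.11, adjusted p 0.973 in limma), or -0.05 without the library of BPA males. Of the rows with a mean of at least 50 FPKM, 3.12% had a larger absolute difference than Pgk1 in males and 77.8% in females.

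Eno2, the neuronal enolase, was at 80.2 FPKM in control males, 77.4 in BPA males, 73.0 in control females and 69.7 in BPA females. Each BPA library was a little below the control library of its sex, but the values of the treatments overlapped across the sexes (combined log2 fold change -0.06, standard error 0.11). Ldha, whose subunit is favoured where pyruvate is turned into lactate, was at 195 FPKM in control males, 184 in BPA males, 194 in control females and 188 in BPA females. Both BPA libraries were below both control libraries, and the percent difference was -5.66 for males and -3.04 for females. The combined log2 fold change was -0.06 (standard error 0.091, adjusted p 0.981 in limma). Ldhb, the subunit favoured where lactate is used, was at 140 and 142 FPKM in the male libraries and at 150 and 136 FPKM in the female libraries, with overlapping treatments. The ratio of Ldha to Ldhb was 1.39 in control males, 1.30 in BPA males, 1.29 in control females and 1.38 in BPA females. It was lower with BPA in males and higher with BPA in females, and the exact permutation test over treatments gave p = 1.

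**Figure D2:**
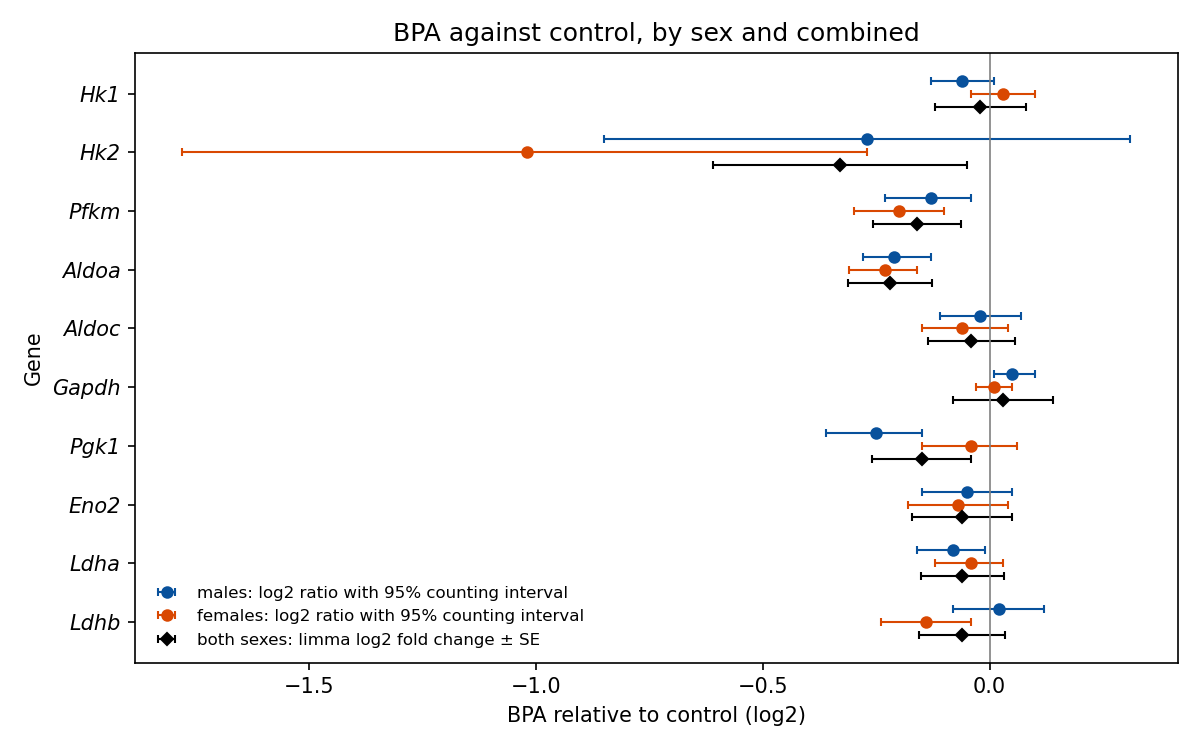
Log2 ratio of BPA to control in males (blue) and females (orange), with 95% counting intervals from estimated fragments, and the limma log2 fold change of both sexes on log2(FPKM + 1) with its standard error (black) for each of the 10 genes. Aldoa and Pfkm lie below 0 in both sexes, at -0.21 and -0.23 and at -0.13 and -0.20, Pgk1 lies at -0.25 in males, and the widest interval is that of Hk2 in females.

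Within a sex there is 1 library a group, so no test was made. Lower values in BPA were seen in 8 of the 10 genes in males and in 8 of the 10 in females, against 50.4% and 56.5% of all rows, and in 7 of the 9 in each sex against 57.3% and 34.3% of the rows with a mean of at least 50 FPKM. In males 0 of the 10 genes differed by over 0.3 on the log2 scale, against 18.4% of all rows and 1.8% of the rows with a mean of at least 50 FPKM. In females 1 gene, Hk2, did so, at -0.50, against 25.2% and 7.79%. Values below control in both sexes at once were seen in 7 of the 10 genes and in 31.6% of all rows, or in 6 of the 9 genes and in 24.4% of rows with a mean of at least 50 FPKM. These were Hk2, Pfkm, Aldoa, Aldoc, Pgk1, Eno2 and Ldha. The male and female differences have opposite signs in Hk1, with -0.06 and 0.03, and Ldhb, with 0.02 and -0.14, as they do in 43.2% of all rows and 42.6% of the rows with a mean of at least 50 FPKM. The sum over the 10 genes was 1991 FPKM in control males, 1949 in BPA males, 1922 in control females and 1854 in BPA females, or 0.431% to 0.466% of the summed FPKM of a library. Without Gapdh the sums were 1105, 1028, 1077 and 1002 FPKM, so that both BPA sums lay below both control sums (exact permutation p = 0.333, the smallest possible).

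Most markers of radial glia and astrocytes had lower values in the BPA libraries. Of 10 such markers tested, 9 were lower in BPA in both sexes, against 31.6% of all rows, 6 had an unadjusted p under 0.05, against 4.7%, and 0 had an adjusted p under 0.05 in limma. Their median log2 fold change was -0.34. In both sexes at once 5 of 8 vessel wall, 4 of 8 meningeal and 3 of 6 cycling cell markers were lower in BPA and 0 were higher. Their combined medians were -0.17, -0.74 and -0.17. In males and females the medians were -0.01 and -0.36 for vessel wall, -0.05 and -1.28 for meningeal and -0.17 and -0.22 for cycling cell markers. Of 7 choroid plexus markers 0 were lower in both sexes and 3 were higher (median 0.33). Of 6 microglia markers 1 was lower and 2 were higher (median 0.03). The summed level of the radial glia and astrocyte markers was 1369 FPKM in control males and 1382 in control females, against 1197 in BPA males and 1238 in BPA females, and none was near 0. Aqp4, the astrocyte water channel, was at 35.8, 24.9, 37.7 and 27.8 FPKM in control males, BPA males, control females and BPA females. Aldh1l1, of the same list, was at 11.5, 14.7, 11.6 and 11.1 FPKM in that order. Aldoc, named above as the aldolase that marks astrocytes, had a combined log2 fold change of -0.04. Slc2a1, a glucose transporter of the blood-brain barrier and glia, had one of 0.14. The summed level of 8 neuron markers was 2897 and 2799 FPKM in control males and females and 2959 and 3130 FPKM in BPA males and females, a median log2 fold change of 0.01. The largest parts of that sum were Tubb3, at 1150 to 1410 FPKM, and Stmn2, at 817 to 926 FPKM. In both sexes at once 3 of the 8 markers were lower in BPA and 3 were higher. Of 9 hippocampal excitatory neuron markers, 2 were lower and 2 were higher, with a median of -0.12. The part of these markers in the values of Aldoa, Pfkm and Pgk1 was not tested.

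The sexes were compared over both treatments, 2 female libraries against 2 male libraries. None of the 10 genes passed an adjusted p under 0.05 in limma, where 1 of 13542 rows (0.00738%) did, and 0 passed an unadjusted p under 0.05, against 10.6% of all rows. Both female libraries lay below both male libraries for Hk1, Aldoc, Gapdh and Eno2, and in no gene did both lie above. These orders were seen in 22.5% and 19.8% of all rows, and in 31.4% and 25.8% of rows with a mean of at least 50 FPKM. Of these 4 genes, Eno2 had a log2 fold change of -0.14 (standard error 0.074, adjusted p 0.549 in limma), Hk1 of -0.12 (standard error 0.071, adjusted p 0.578), Gapdh of -0.09 and Aldoc of -0.08. The sparse Hk2 was at -0.33 (standard error 0.28), or -0.58 without the library of control females and -0.08 without that of BPA females. Eno2 differed by -0.13 between the control libraries and by -0.15 between the BPA libraries. Hk1 differed by -0.17 and -0.08. Pgk1, which is X-linked, had a difference of 0.10 (standard error 0.098, adjusted p 0.772 in limma), but it was 0.00 between the control libraries and 0.20 between the BPA libraries, and -0.03 in all without the library of BPA males. Ldha and Ldhb differed least, at 0.01 and 0.02 (standard errors 0.072 and 0.077).

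**Figure D3:**
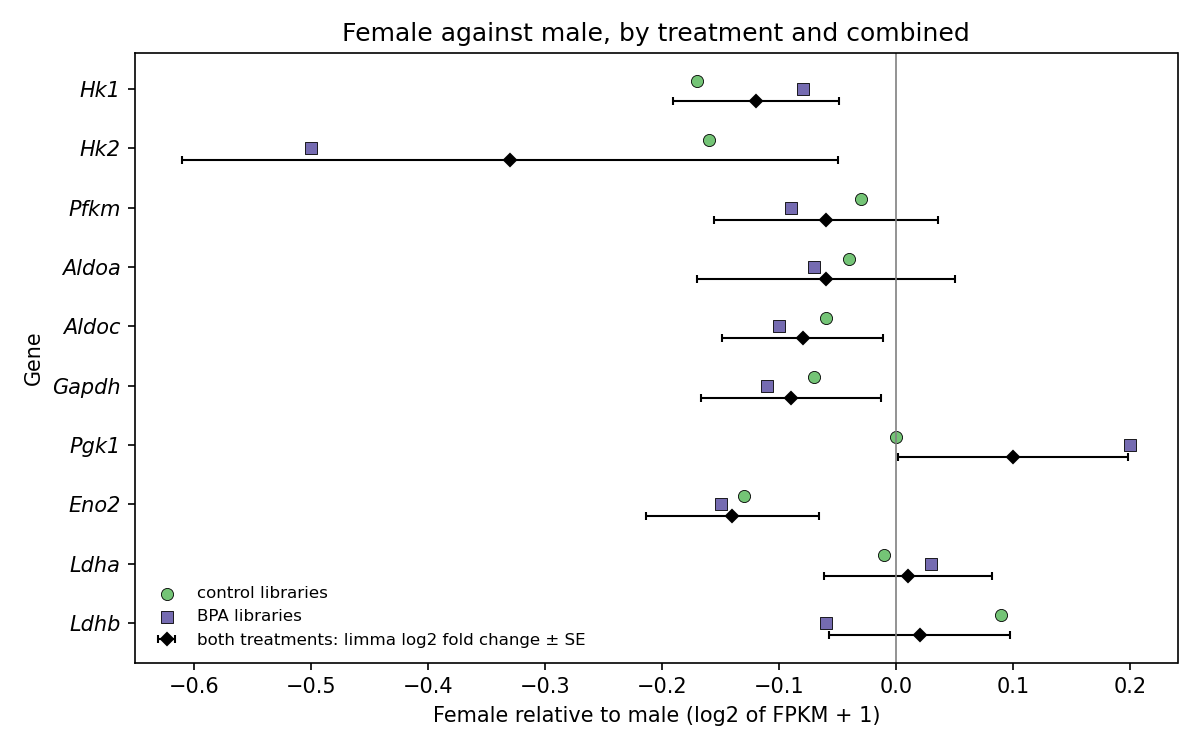
Difference of females from males on log2(FPKM + 1) for each of the 10 genes, between the control libraries (green circles), between the BPA libraries (purple squares) and over both by limma with the standard error (black). Hk1, Aldoc, Gapdh and Eno2 are below 0 in both treatments, and Pgk1 is at 0.00 in controls and 0.20 with BPA.

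The members were set among the isozymes of the same step. Pfkm made up 44.0% to 45.4% of the summed FPKM of the 3 phosphofructokinase genes in every library. Pfkl, the liver-type subunit, held 40.3% and 40.4% in control males and BPA males but 33.9% and 35.1% in control females and BPA females, and Pfkp, the platelet-type subunit, held 15% and 15.6% against 21.0% and 19.5%. The male and female shares of Pfkl and of Pfkp did not overlap, and the exact permutation test of each gave p = 0.333, the smallest possible. As levels, Pfkl was at 65.5, 60.8, 53.6 and 48.2 FPKM in control males, BPA males, control females and BPA females, with a female to male log2 fold change of -0.31 (standard error 0.089, unadjusted p 0.0117 and adjusted p 0.356 in limma). Pfkp was at 24.4, 23.5, 33.2 and 26.8 FPKM, a log2 fold change of 0.30 (standard error 0.12, unadjusted p 0.0409 and adjusted p 0.442 in limma). Neither passed the adjusted threshold. The summed phosphofructokinase level was 163 FPKM in control males, 151 in BPA males, 158 in control females and 137 in BPA females, with both BPA libraries below both control libraries.

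Aldoa held 63.1% and 63.4% of the summed FPKM of Aldoa and Aldoc in control males and females and 60.0% and 60.5% in BPA males and females. That sum was 392, 357, 379 and 337 FPKM in control males, BPA males, control females and BPA females. Eno2 held 16.6% to 17.6% of the enolase FPKM, and Eno1, the widespread enolase, the bulk of it at 395, 360, 363 and 349 FPKM in the same order. Ldha held 56.4% to 58.1% of the lactate dehydrogenase FPKM. Differences of a few percentage points between these shares can be compared only with the other libraries, since no group has a replicate.

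**Figure D4:**
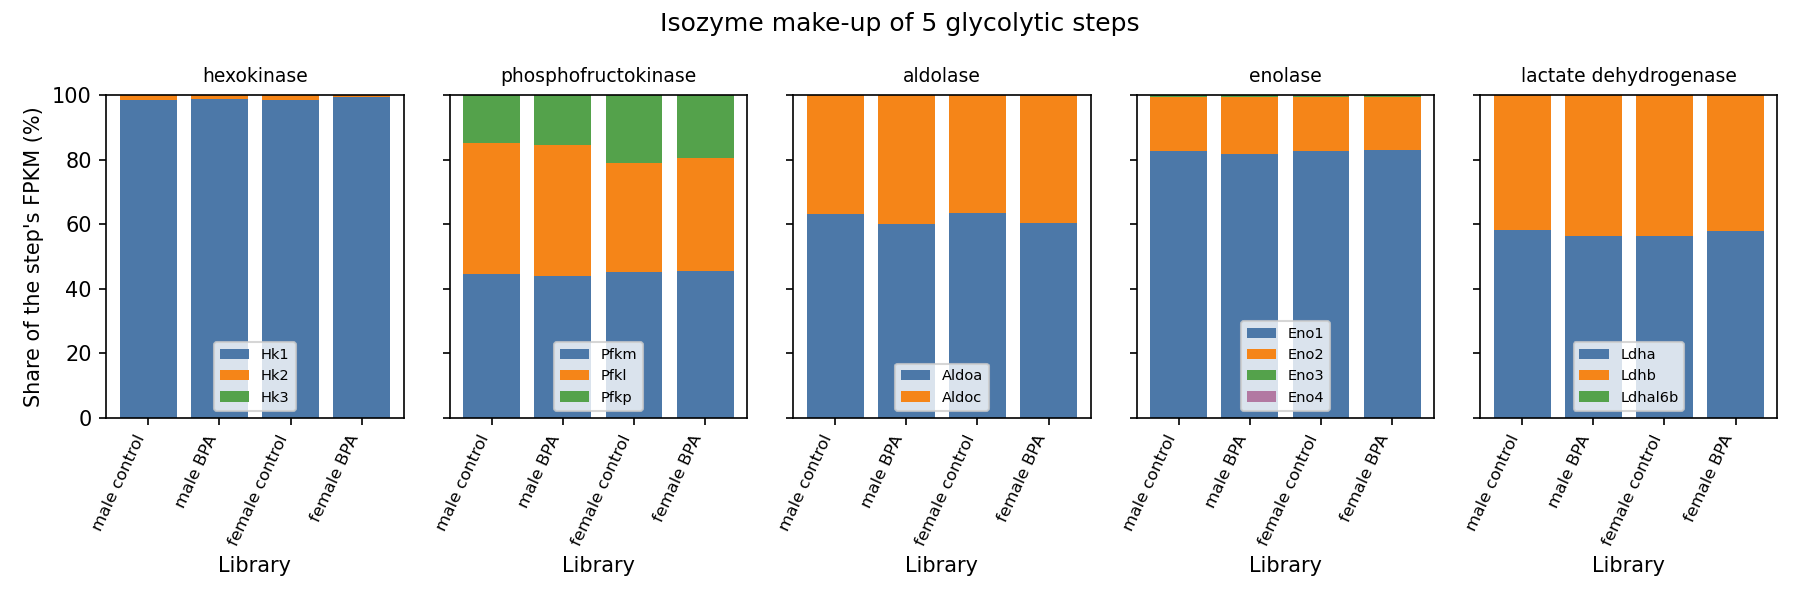
Share of each isozyme gene in the summed FPKM of its step, in percent, as stacked bars for the 4 libraries and 5 steps. Hk1 fills at least 98.6% of the hexokinase bar, Pfkl is at 40.3% and 40.4% in the male libraries and at 33.9% and 35.1% in the female libraries, and Aldoa is at 63.1% and 63.4% in controls and 60.0% and 60.5% in BPA.

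A further 106 genes of glucose metabolism, in 8 lists, were read from the same fits, and 84 of the 97 genes found were tested. None passed an adjusted p under 0.05 in limma for BPA or for sex. An unadjusted p under 0.05 was reached by 4 genes for BPA and 11 for sex, where 4.7% and 10.6% of all rows reached it. Of the 84 genes, 54 had a combined BPA value below 0, against 54.4% of all rows. Both BPA libraries lay below both control libraries in 20 of the 84 genes and above them in 7, against 19.9% and 13.8% of all rows.

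Among the 15 other glycolytic enzymes tested, 10 were below 0 for BPA, against 54.4% of all rows, with a median log2 fold change of -0.06. Both BPA libraries were below both control libraries for 5 of the 15, Gpi, Tpi1, Pgam1, Eno1 and Galm, an order seen in 19.9% of all rows. Pgam1, the mutase that moves the phosphate of 3-phosphoglycerate, was at 65.9 FPKM in control males, 60.1 in BPA males, 68.8 in control females and 55.0 in BPA females, a log2 fold change of -0.22 (standard error 0.10, adjusted p 0.973 in limma), the same size as that of Aldoa. Tpi1, the triosephosphate isomerase, was at -0.06 (standard error 0.091). Pkm, the pyruvate kinase that ends the pathway, had a log2 fold change of 0.00 (standard error 0.092) and was at 214, 215, 209 and 208 FPKM in control males, BPA males, control females and BPA females. Gpi, the isomerase ahead of phosphofructokinase, was at -0.09 (standard error 0.094) and Eno1 at -0.10 (standard error 0.099). Pgam2, the muscle mutase, had the highest value of the list, at 0.22 (standard error 0.27), and Galm, the aldose epimerase, the lowest at -0.26 (standard error 0.23), both at under 5 FPKM. Of 4 tested regulators of fructose bisphosphate, 2 were below 0, and Pfkfb4 was highest at 0.14 (standard error 0.14) and Pfkfb2 lowest at -0.06 (standard error 0.11).

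Of 8 transporters of glucose and lactate tested, 7 were below 0, against 54.4% of all rows, with a median of -0.11. The exception, Slc2a1, the glucose transporter of the blood-brain barrier and glia, was at 18.7 and 19.7 FPKM in control males and BPA males and at 17.1 and 19.9 FPKM in control females and BPA females, with both BPA libraries above both control libraries (log2 fold change 0.14, standard error 0.11, adjusted p 0.973 in limma). Slc2a13, a proton-coupled myo-inositol transporter of the glucose transporter family, was lowest at -0.43 (standard error 0.14, unadjusted p 0.0221, adjusted p 0.973 in limma), with 8.04, 6.16, 9.20 and 6.10 FPKM in control males, BPA males, control females and BPA females. Of 14 genes for pyruvate entry into mitochondria, 8 were below 0. Pdp2, a phosphatase that reactivates pyruvate dehydrogenase, was lowest at -0.56 (standard error 0.19, unadjusted p 0.0232, adjusted p 0.973 in limma), at 4.95 and 3.58 FPKM in control and BPA males and at 5.05 and 2.61 FPKM in control and BPA females, and Pdpr was highest at 0.14 (standard error 0.13).

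Of 8 genes of the NADH shuttles tested, 7 were below 0. For this list and the lists below, the share of all rows below 0 was 54.4%. Gpd1 was lowest at -0.24 (standard error 0.19) and Slc25a11 highest at 0.09 (standard error 0.11). The 8 genes of the pentose phosphate pathway divided 4 and 4 around 0, with Rpia highest at 0.30 (standard error 0.15) and H6pd lowest at -0.15 (standard error 0.30). Of 11 glycogen genes, 8 were below 0, with Pygl, the liver glycogen phosphorylase, lowest at -0.34 (standard error 0.18) and Gbe1 highest at 0.02 (standard error 0.16). The 16 tested genes of HIF-1 and its targets outside glycolysis divided 8 and 8, with a median of -0.03. Hif1a itself was at 28.6, 30.5, 33.0 and 32.4 FPKM in control males, BPA males, control females and BPA females. Epas1, which encodes HIF-2 alpha, was lowest at -0.42 (standard error 0.15, unadjusted p 0.0279, adjusted p 0.973 in limma), at 17.2 and 14.8 FPKM in the male and 18.3 and 11.4 FPKM in the female libraries. Mxi1, a MYC antagonist, was highest at 0.38 (standard error 0.13, unadjusted p 0.022, adjusted p 0.973 in limma), at 20.6 and 29.4 FPKM in the male and 19.9 and 24.3 FPKM in the female libraries.

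**Figure D5:**
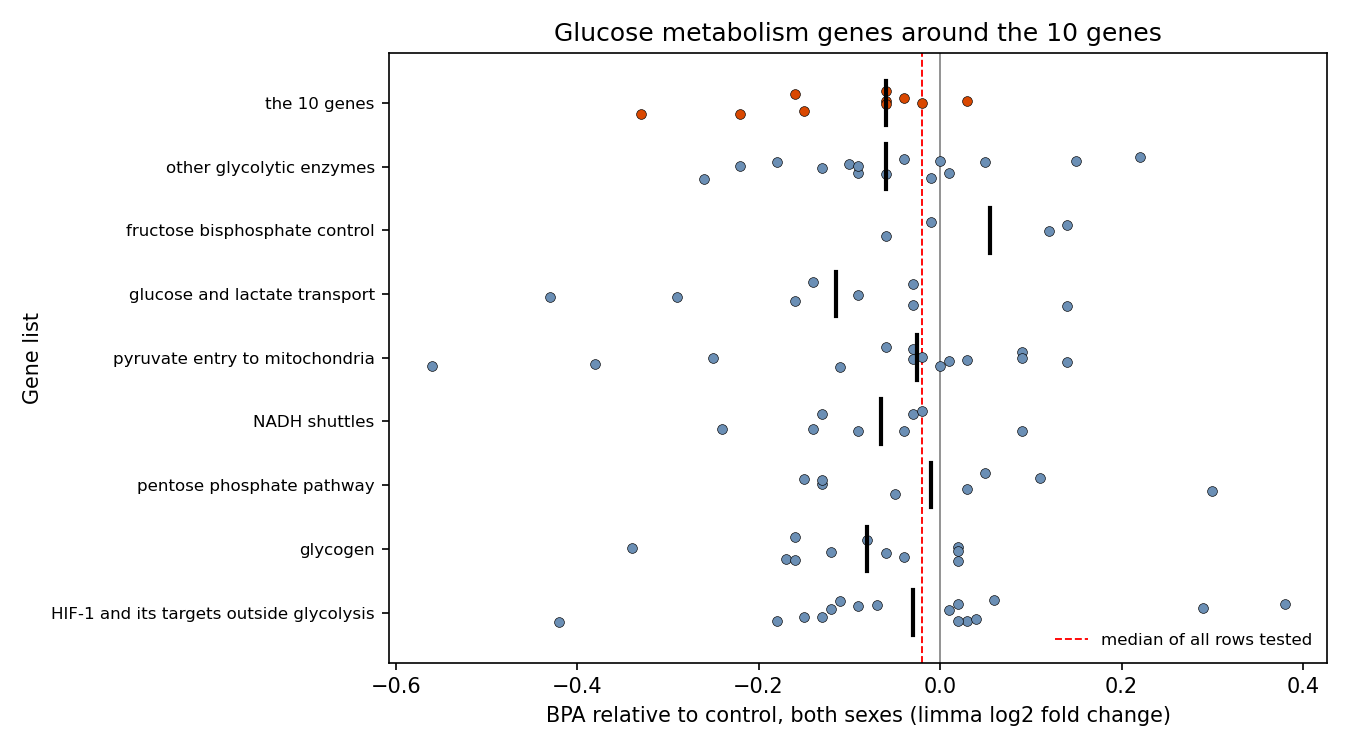
Combined BPA log2 fold change (limma, log2(FPKM + 1)) of each tested gene of the 10 genes (orange) and of 8 lists around them (blue), with the median of each list as a black bar and the median of all rows as a dashed line at -0.02. The 10 genes lie between -0.33 and 0.03 with a median of -0.06, as do the other glycolytic enzymes in their median, and no gene shown passed an adjusted p under 0.05.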

How the data were processed

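The authors deposited 1 table for each of the 4 libraries, with 1 FPKM value per gene or new gene model (BGI_novel), no value below 0.01 and no read counts. The unit was read from the values. The submitters' processing notes name HISAT 0.1.6, Bowtie2 2.2.5, RSEM and the build rn6, without saying what each did. The labels give 1 library per group, so that p-values measure the spread between libraries of both sexes or both treatments.

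The tables were joined on gene ID: 16375 of 17445 rows are in all 4, and 13542 of these with a mean of at least 1 FPKM were tested after adding a pseudocount of 1 and taking log2, a scale that shrinks differences of low genes, using limma 3.58.1 (trended eBayes; R 4.3.3) and Benjamini-Hochberg adjustment. BPA was compared with control, and females with males, without covariates. Depth was taken from the steps of low values of rows of 300 to 1500 bases, where 95.6% to 98.6% of values lay within 0.15 of a whole fragment. The fit was tested on simulated data. Python 3.11.15 with pandas 2.3.3, numpy 2.4.6, scipy 1.17.1 and matplotlib 3.10.9 was used for the rest. Promoters are those of RefSeq, matched by gene ID (GRCr8).

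The 10 genes and the lists were chosen with earlier results of these data known. Besides the 10 genes, those named are 7 glycolytic neighbours (Gpi, Pfkl, Pfkp, Tpi1, Pgam1, Eno1 and Pkm) and, in each list, the genes with the highest and lowest combined BPA value. Hif1a, Aqp4 and BGI_novel_G002422 were named after their values were seen. Alternatives were another pseudocount (0.1), a minimum mean of 5 FPKM or none, quantile or median-of-ratios scaling, no intensity trend, the other factor as a covariate, rows of 1 gene summed, and leaving out each library. Some genes of these pathways are not reported here.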

Additional observations from a re-analysis of the deposited data

Results flagged for a closer look

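In 2 of the 10 genes and 5 of the other genes or models named, the BPA library was above the control library in 1 sex and below it in the other. With 1 library a group the difference between the sexes was not tested. Of all rows tested, 43.2% had opposite signs. Hk1 differed by -0.06 in males and 0.03 in females, Ldhb by 0.02 and -0.14, and Pkm by 0.01 and -0.01 on log2(FPKM + 1). Pfkfb4, which sets the level of fructose 2,6-bisphosphate, differed by -0.01 in males and 0.28 in females. Gpd1, the cytosolic glycerol-3-phosphate dehydrogenase, differed by -0.50 in males and 0.01 in females, from 5.38 to 3.52 FPKM and from 4.85 to 4.91 FPKM. Hif1a differed by 0.09 in males and -0.03 in females. The GAPDH-like model BGI_novel_G002422 differed by -2.32 and 0.99.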

How the results depend on the processing

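None of the 10 genes passed an adjusted p under 0.05 in limma under any of the 12 alternatives of either comparison, and the lowest adjusted p was 0.477 for BPA (Aldoa, sex as a covariate) and 0.418 for sex (Eno2, treatment as a covariate). The number of all rows called for BPA was 6 without the intensity trend, 2 with sex as a covariate and 0 to 3 when a library was left out. For sex it was 21 with a mean of at least 5 FPKM, 26 with the rows of a gene summed, 55 with treatment as a covariate and 1 to 2 when a library was left out. The combined BPA value of Aldoa stayed between -0.25 and -0.19 and that of Pfkm between -0.21 and -0.12. That of Gapdh was -0.0383 after quantile normalization and that of Hk1 0.0089 after median-of-ratios scaling. With a library left out, Gapdh ranged from -0.0226 to 0.0899 (below 0 without male BPA or female control), Hk1 from -0.10 to 0.07 (above 0 without male control or female BPA), Eno2 from -0.133 to 0.0166 (above 0 without male control or female BPA) and Aldoc from -0.0871 to 0.0108 (above 0 without female BPA). The female to male value ranged from -0.154 to 0.0392 for Pfkm and from -0.173 to 0.0598 for Aldoa (both above 0 without male control or female BPA), from -0.0268 (without male BPA) to 0.225 for Pgk1, from -0.032 to 0.0516 for Ldha (below 0 without male BPA or female control) and from -0.0507 (without female control) to 0.0858 for Ldhb. The cause of these changes was not tested. Within females, quantile normalization gave -0.05 for Hk1 and -0.10 for Gapdh, and within males it gave 0.01 for Aldoc. Median-of-ratios scaling gave 0.0 for Pgk1 and Ldha within females. Aldoc, Pgk1 and Ldha are among the genes reported above as below control in both sexes. Hk2 could not be fitted with a mean of at least 5 FPKM. The labels give no replicate numbers to pair libraries by, and the fit with sex as a covariate is the one that compares BPA with control within each sex. Depth limits Hk2, with 21 to 52 fragments a library.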
